A study of Mus musculus with 6 samples.

Results

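The solute carriers of amino acids, peptides, monocarboxylates and vesicular transmitters were examined in RNA sequencing libraries from mouse lung tumour cells. They were taken by gene symbol as the protein-coding genes of the families Slc1, Slc3, Slc6, Slc7, Slc15, Slc16, Slc17, Slc18, Slc32, Slc36, Slc38 and Slc43, which gave 96 of the 55487 genes in the count table. Slc7a6os, named for its place opposite Slc7a6 and not itself a carrier, is among them by its symbol. The tumours were of the KP model, a mouse model of lung adenocarcinoma in which the tumour cells have lost Trp53. The sgNeo tumours carry the sgNeo guide and are labelled Lkb1 wild type, and the sgLkb1 tumours carry a guide against Lkb1 (symbol Stk11) and are labelled Lkb1 mutant. Cells that were positive for GFP and negative for the leukocyte marker CD45 were sorted from digested lung 11 weeks after the tumours were started, with 3 libraries per genotype. The labels do not say whether each library is a separate animal, and the spread behind each p-value is that between these libraries, which may be technical. The strain, sex and age of the mice, the promoter behind Cre or Cas9 and the share of cells with a disrupted Lkb1 are likewise not stated in the labels.

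Solute carriers move small molecules across membranes. Slc1, Slc6 and Slc38 proteins take up amino acids with sodium, Slc7 light subunits exchange amino acids while bound to a heavy subunit of Slc3, and Slc15 proteins carry short peptides with protons. Some Slc16 proteins carry lactate, pyruvate and related acids, and Slc18, Slc32 and some Slc17 proteins load transmitters into vesicles. In the lung, alveolar type 2 cells, the surfactant-making cells from which KP adenocarcinomas can arise, are known for uptake of peptides and amino acids at the airway surface.

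Library totals lay between 26007503 and 41729299 expected counts. Levels are given as CPM, which is counts scaled to the effective library size. Values for the libraries of a genotype are listed throughout in the order of replicates 1, 2 and 3. Stk11 itself stood at 68.3, 33.4 and 82.7 CPM in sgNeo against 23.5, 25.6 and 25.3 CPM in sgLkb1, where it was lower (adjusted p = 0.023 by edgeR). Dropping any 1 library other than sgNeo replicate 2 ended this call, and the adjusted p then reached 0.076 by edgeR. Over all 15978 tested genes, 7.05% were higher in sgLkb1 and 8.6% were lower, which is the background for the marker counts here. Of 8 alveolar type 2 markers 8 fell in sgLkb1. Of the markers of other cells, 4 of 7 tested fibroblast, 3 of 8 endothelial and 2 of 8 macrophage markers rose, and 2 of 4 tested B and plasma cell markers fell. Further, 1 of 4 tested mesothelial and 2 of 2 tested mast cell and basophil markers rose, 1 of 3 tested neuron and Schwann cell markers rose and 1 fell, and none of 1 T cell, 4 neutrophil and 4 erythroid markers tested passed. The summed fibroblast markers lay at 37.0 to 116 CPM in sgNeo and at 178 to 1393 CPM in sgLkb1, highest in sgLkb1 replicate 3. Summed mesothelial markers lay at 170 to 427 CPM in sgNeo and 816 to 1282 CPM in sgLkb1. Mast cell and basophil sums lay at 16.3 to 33.1 and 133 to 180 CPM, and endothelial sums at 36.3 to 59.7 and 82.7 to 140 CPM. B and plasma cell sums were lower in sgLkb1, and those of the remaining other cells overlapped between genotypes. The part of these cells in the carrier results was not tested. In bulk RNA, fewer cells that express a carrier and less of its RNA in each cell cannot be told apart.

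Of the 96 genes, 60 had enough counts to be tested and 36 did not. Of those 60, 7 were higher in sgLkb1 (background 7.05% of all 15978 tested genes), 9 were lower (background 8.6%) and 44 did not pass an adjusted p of 0.05 in edgeR's quasi-likelihood test. Together 16 passed, which is 26.7% of the 60 beside 15.7% of all tested genes. The 60 had a median log2 fold change (sgLkb1 minus sgNeo) of -0.13, beside 0.02 over all tested genes. The genes that rose were Slc17a6, Slc7a8, Slc38a1, Slc16a3, Slc17a9, Slc38a4 and Slc7a7, and those that fell were Slc16a12, Slc16a7, Slc6a20a, Slc15a2, Slc1a3, Slc15a1, Slc7a4, Slc1a5 and Slc43a2. Exons of 22 of the 96 genes overlap another gene. In each of the 16 genes that passed, the 3 libraries of one genotype lay entirely above those of the other. Passing the test makes such a separation likely, so it is no further support. The genotypes were separate in this way for 31 of the 60 tested carriers and for 36.5% of all tested genes.

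**Figure D1:**
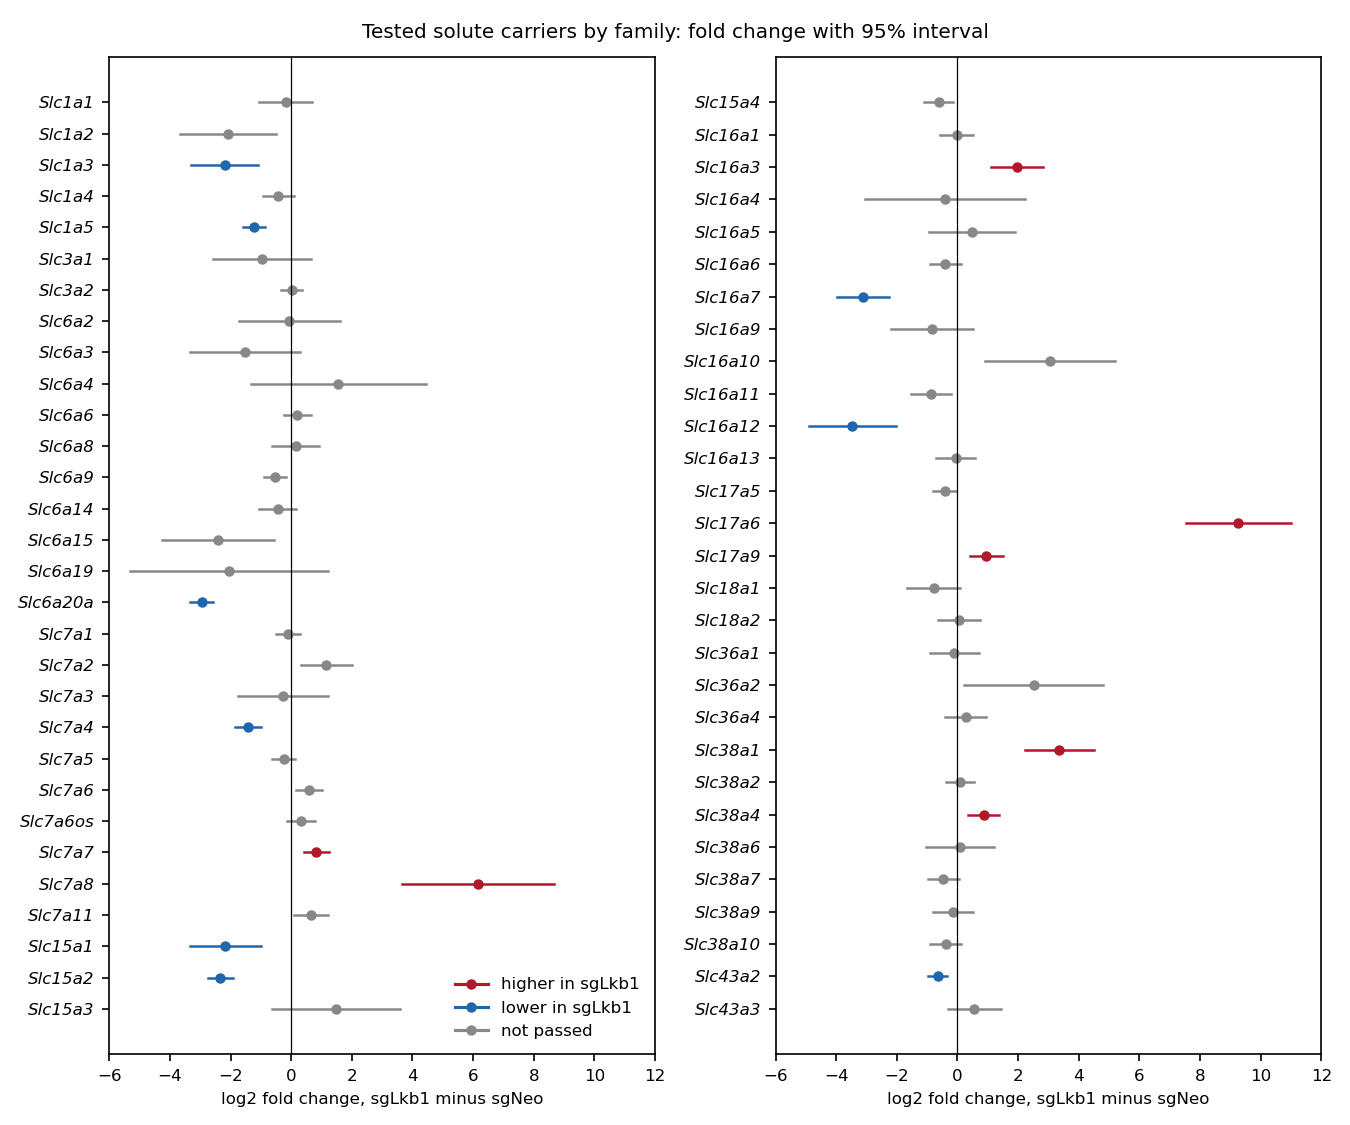
Log2 fold change (sgLkb1 minus sgNeo) of the tested genes in family order, leaving out 1 that did not pass, with points for the estimate and lines for its 95% interval, which is not adjusted for the number of genes. The 7 red genes lie to the right of 0 and the 9 blue genes to the left, with Slc17a6 farthest right at 9.26 and Slc16a12 farthest left at -3.47.

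**Figure D2:**
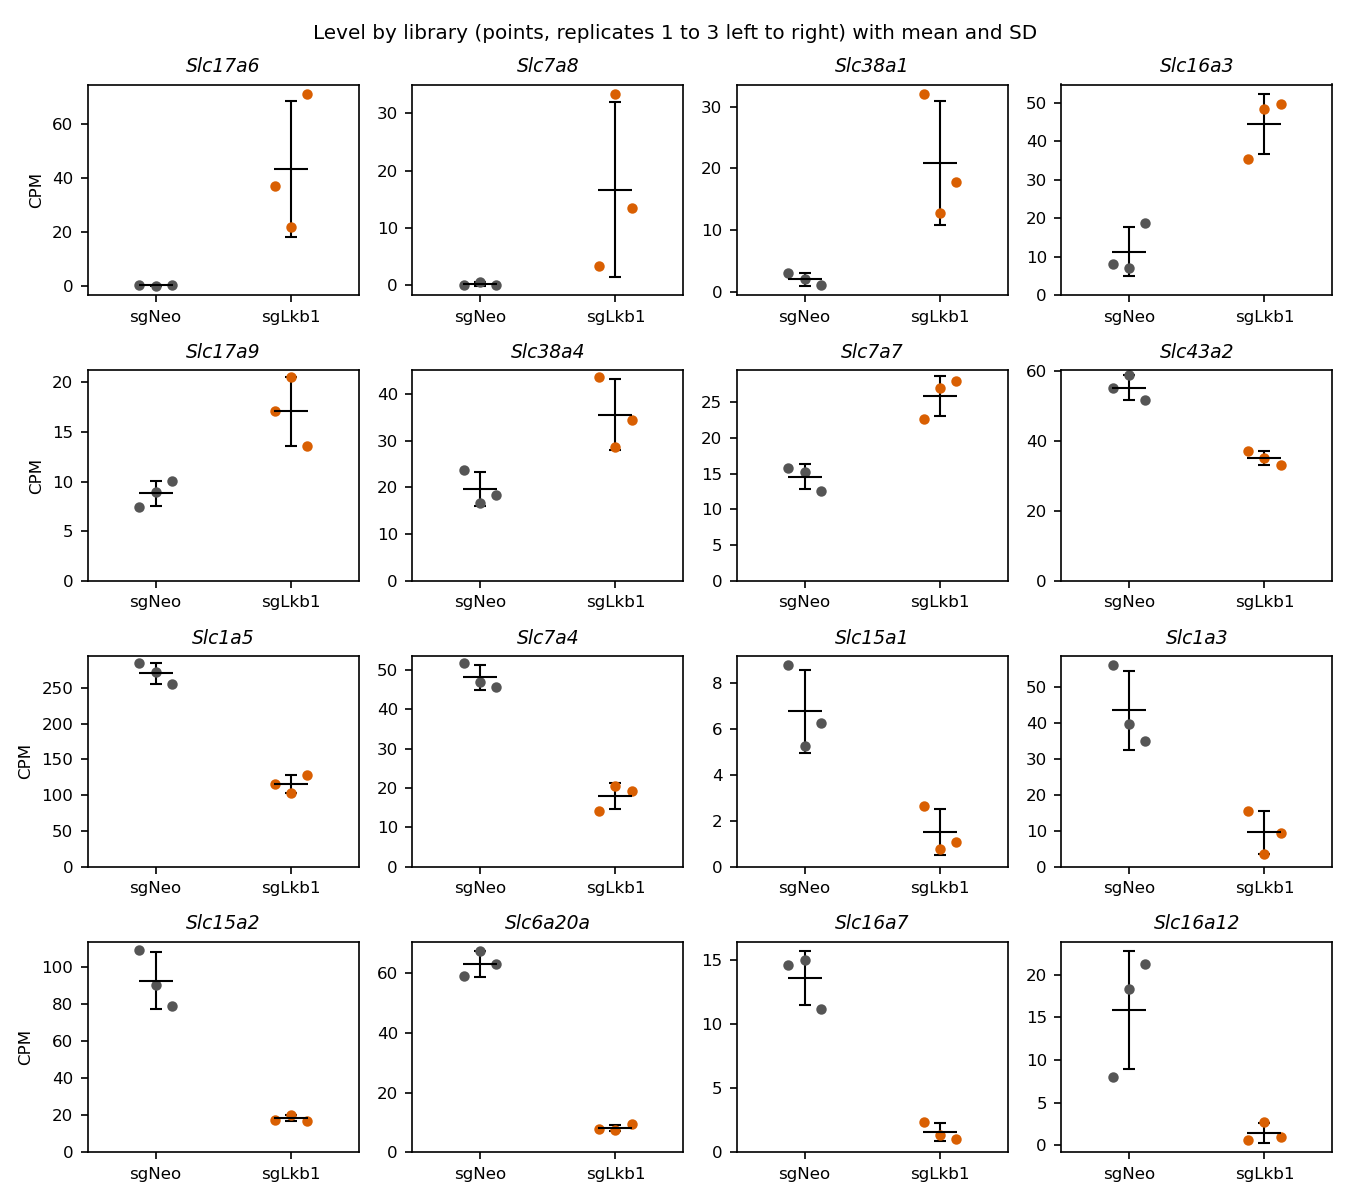
CPM of the 16 genes that passed, one panel per gene and each with its own axis from 0, with points for the libraries, a bar for the mean and whiskers for the SD (n = 3). The genotypes do not overlap in any panel, and the spread among sgLkb1 libraries is widest relative to the mean for Slc7a8.

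Slc1a5, an exchanger of neutral amino acids that brings glutamine into cells, was the most abundant carrier per length in sgNeo and fell in sgLkb1. The libraries held 285, 273 and 255 CPM of it in sgNeo against 116, 103 and 128 CPM in sgLkb1. The genotypes were well apart and each was tight. The log2 fold change was -1.23 with an SE of 0.15 (adjusted p = 0.0021 by edgeR). The gene lies at chr7:16781340-16798274 (GRCm38, plus strand).

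Slc1a3, a sodium-driven glutamate and aspartate transporter known from glia, fell as well. It was at 56.0, 39.6 and 34.9 CPM in sgNeo and at 15.6, 3.41 and 9.50 CPM in sgLkb1. The sgLkb1 libraries were all lower but differed several-fold among themselves, with replicate 2 the lowest. The log2 fold change was -2.19 with an SE of 0.48 (adjusted p = 0.020 by edgeR), and the call was lost without sgLkb1 replicate 3 or either of sgNeo replicates 1 and 2 (adjusted p up to 0.066). Slc1a1, the epithelial glutamate and cystine transporter, was at 17.7, 18.2 and 16.8 CPM in sgNeo and 26.2, 8.40 and 11.8 CPM in sgLkb1. Without sgLkb1 replicate 1 its log2 fold change was -0.78 (edgeR adjusted p = 0.056), against -0.19 in all libraries. Slc1a4, a carrier of alanine, serine and cysteine, was at 20.9 ± 4.52 and 15.6 ± 2.75 CPM (SD, n = 3) in sgNeo and sgLkb1. Neither Slc1a1 nor Slc1a4 passed. Slc1a2 was below 2 CPM in every library and did not pass, and Slc1a6 and Slc1a7 were not tested.

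Of the 5 tested light subunits of heteromeric exchangers 2 rose in sgLkb1 (background 7.05%), and neither heavy subunit passed. Slc3a2, the heavy subunit that carries most light subunits to the cell surface, was at 159, 150 and 186 CPM in sgNeo and at 168, 160 and 174 CPM in sgLkb1. These ranges overlap, and the log2 fold change of 0.02 had a 95% interval from -0.32 to 0.36. The other heavy subunit, Slc3a1, stayed under 1.2 CPM in every library.

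Slc7a8, a light subunit that exchanges large and small neutral amino acids, was nearly silent in sgNeo and rose in sgLkb1. It was at 0.040, 0.57 and 0.080 CPM in sgNeo and at 3.35, 33.4 and 13.4 CPM in sgLkb1. All sgLkb1 libraries were higher, yet they spanned a wide range, with replicate 1 the lowest and replicate 2 the highest. The log2 fold change was 6.17 with an SE of 1.09 (adjusted p = 0.0085 by edgeR), with 8.03 without sgNeo replicate 2 and 5.21 without sgLkb1 replicate 2. With limma-voom the adjusted p was 0.17. Slc7a8 lies at chr14:54722209-54781946 (minus strand).

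Slc7a7, a light subunit that exports arginine and lysine in exchange for neutral amino acids and sodium, rose less. It was at 15.8, 15.3 and 12.6 CPM in sgNeo and at 22.6, 26.95 and 27.95 CPM in sgLkb1 (log2 fold change 0.83 with an SE of 0.18, adjusted p = 0.019 by edgeR). The groups were separate but close, and the call held only without sgLkb1 replicate 1; in the other 5 fits that left out a library the adjusted p lay up to 0.074. Slc7a7 is also known from macrophages, whose markers Mrc1 and C1qb rose while the summed macrophage list was at 204 to 247 CPM in sgNeo and 211 to 232 CPM in sgLkb1. An exon of Slc7a7 overlaps Oxa1l on the opposite strand over 232 bases.

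Slc7a5, the light subunit for leucine and other large neutral amino acids, was at 40.6, 36.6 and 35.0 CPM in sgNeo and 26.9, 33.1 and 34.75 CPM in sgLkb1, and did not pass (log2 fold change -0.25, 95% interval -0.62 to 0.13). Slc7a6, which like Slc7a7 exchanges cationic for neutral amino acids, was at 26.03 ± 5.28 and 39.5 ± 2.84 CPM with an edgeR adjusted p of 0.064. It passed without a filter on low counts and with DESeq2. Slc7a11, the cystine-glutamate exchanger that feeds glutathione synthesis, was at 11.0, 8.34 and 9.80 CPM in sgNeo and 19.6, 12.6 and 13.4 CPM in sgLkb1. Its genotypes did not overlap, but it did not pass (log2 fold change 0.64, 95% interval 0.08 to 1.21 without adjustment, edgeR adjusted p = 0.12).

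Levels of different genes were compared as CPM per kilobase of merged exons. On that scale Slc7a5 made up 51.9, 46.8 and 44.2% of all light subunits in sgNeo, and 28.4, 27.1 and 31.5% in sgLkb1. Slc7a8 made up at most 0.54% in sgNeo and 2.62, 20.3 and 8.998% in sgLkb1. The genotypes were separate for both shares. The summed level of the light subunits went from 21.1, 21.1 and 21.4 CPM per kilobase in sgNeo to 25.5, 32.9 and 29.8 in sgLkb1. Slc7a5 was thus the leading light subunit in every sgNeo library, while in sgLkb1 replicate 1 Slc7a6 had the greatest share, at 36.7%.

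**Figure D3:**
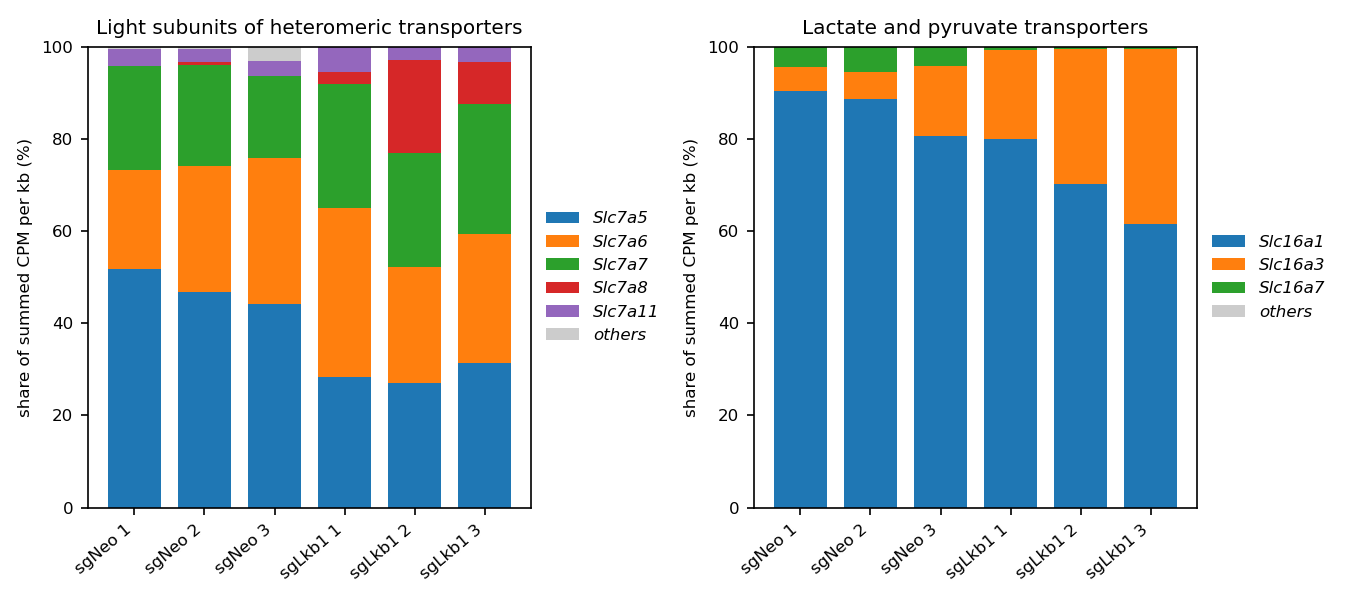
Share of the summed CPM per kilobase taken by each light subunit (left) and by each lactate and pyruvate transporter (right) in every library, in percent. Slc7a5 takes 44.2 to 51.9% of light subunits in sgNeo and 27.1 to 31.5% in sgLkb1, and Slc16a3 takes 5.33 to 15.2% of the lactate and pyruvate transporters in sgNeo and 19.4 to 37.98% in sgLkb1.

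Among the cationic members of the Slc7 family, Slc7a4, whose transport function is not settled, fell. It was at 51.6, 47.0 and 45.6 CPM in sgNeo and at 14.1, 20.4 and 19.2 CPM in sgLkb1 (log2 fold change -1.42 with an SE of 0.18, adjusted p = 0.0023 by edgeR). The groups were far apart, and 554 bases of its exons overlap P2rx6 on the opposite strand. Slc7a1, the general importer of arginine and lysine, was at 32.3 ± 2.49 and 30.1 ± 4.90 CPM (95% interval of the log2 fold change -0.50 to 0.30). Slc7a2, a second arginine carrier that is induced in macrophages, was at 4.65, 4.62 and 4.14 CPM in sgNeo and 14.5, 5.54 and 9.84 CPM in sgLkb1 and missed the threshold (adjusted p by edgeR 0.070). It passed without sgLkb1 replicate 2 (log2 fold change 1.47, edgeR adjusted p = 0.023), without a filter on low counts (1.197, 0.0187) and with DESeq2 (1.19, 0.0168).

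In the Slc6 family, Slc6a20a, a sodium and chloride driven transporter of proline and related imino acids, fell the most. It was at 58.9, 67.5 and 63.0 CPM in sgNeo and at 7.68, 7.37 and 9.35 CPM in sgLkb1. Both groups were tight and far apart, giving a log2 fold change of -2.96 (SE 0.17, adjusted p = 0.00017 by edgeR). Its near copy Slc6a20b was at most 0.36 CPM and was not tested, and reads shared by the 2 copies would be divided by RSEM. Slc6a20a lies at chr9:123634770-123678885 (minus strand), where 607 bases of its exons overlap Ccr9 and 2 unnamed gene models on the opposite strand.

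None of the other 9 tested Slc6 genes passed in edgeR's test of all libraries. Slc6a14, which takes up nearly all neutral and cationic amino acids, was at 78.1, 63.4 and 72.6 CPM in sgNeo and 74.8, 35.3 and 46.7 CPM in sgLkb1. Its genotypes overlapped through sgLkb1 replicate 1; without that library the log2 fold change was -0.78 (edgeR adjusted p = 0.029) against -0.45 in all libraries. Slc6a9, the glycine transporter, was lower in every sgLkb1 library, at 68.4 ± 4.60 and 47.2 ± 6.97 CPM, with an edgeR adjusted p of 0.054, and passed without sgLkb1 replicate 3. Slc6a15, a neutral amino acid transporter known from brain, was at 2.89, 3.20 and 2.27 CPM in sgNeo and 0.91, 0.052 and 0.60 CPM in sgLkb1 (edgeR adjusted p = 0.081), and passed without a filter, with DESeq2 and with limma-voom. The taurine carrier Slc6a6 was at 57.1 ± 8.33 and 65.6 ± 13.4 CPM and the creatine carrier Slc6a8 at 6.61 ± 2.44 and 7.32 ± 1.62 CPM. The serotonin transporter Slc6a4, which lung endothelium expresses, reached 7.95 CPM in sgLkb1 replicate 3 and was at most 1.97 CPM in every other library. That library also had the highest summed endothelial markers, at 140 CPM beside 82.7 and 83.8 CPM in the other sgLkb1 libraries. Its summed fibroblast markers were the highest as well, at 1393 CPM beside 178 and 258 CPM. The part of these cells in the Slc6a4 level was not tested.

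Of the 7 tested genes of the Slc38 family of sodium-coupled neutral transporters, 2 rose (background 7.05%) and none fell. The other 5 did not pass, among them the abundant Slc38a2. Slc38a1, a glutamine importer prominent in neurons and many tumours, was at 3.09, 1.98 and 1.00 CPM in sgNeo and at 32.05, 12.75 and 17.8 CPM in sgLkb1. Every sgLkb1 library was at least several-fold above the highest sgNeo library (log2 fold change 3.36, SE 0.50, adjusted p = 0.0040 by edgeR). Slc38a4, a carrier of neutral and cationic amino acids known from liver and placenta, was at 23.7, 16.6 and 18.5 CPM in sgNeo and at 43.7, 28.6 and 34.5 CPM in sgLkb1. Its log2 fold change was 0.86 with an SE of 0.22 (adjusted p = 0.032 by edgeR), and the call was lost without sgNeo replicate 2 or 3 or sgLkb1 replicate 1 or 3 (adjusted p up to 0.14).

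Slc38a2, the starvation-inducible glutamine and alanine importer, was at 385, 365 and 386 CPM in sgNeo and at 514, 333 and 345 CPM in sgLkb1. It took 58.7 to 59.9% of the summed Slc38 level per kilobase in sgNeo and 55.7 to 69.5% in sgLkb1, and its log2 fold change was 0.07 (95% interval -0.39 to 0.53). Slc38a1 took at most 0.25% of that sum in sgNeo and 1.11 to 2.22% in sgLkb1, so its rise was large as a fold and small beside Slc38a2. On the lysosome, Slc38a9, which reports arginine to mTORC1, was at 9.74 ± 2.36 and 8.81 ± 2.02 CPM, Slc38a7, which exports glutamine, at 21.6 ± 1.41 and 15.7 ± 3.73 CPM, and Slc36a1, a proton-coupled exporter, at 2.99 ± 0.63 and 2.76 ± 0.28 CPM. None of these passed.

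Slc43a2, a facilitative carrier of branched-chain and aromatic amino acids, was at 55.2, 59.0 and 51.8 CPM in sgNeo and 37.1, 35.0 and 33.2 CPM in sgLkb1. Its groups were tight and did not overlap (log2 fold change -0.66, SE 0.14, adjusted p = 0.017 by edgeR). The call was lost without sgLkb1 replicate 2 or either of sgNeo replicates 1 and 2 (adjusted p up to 0.090). Slc43a3, a carrier of purine bases, was at 8.70 ± 1.38 and 12.8 ± 7.06 CPM, short of the threshold.

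Both cell-surface peptide transporters of the Slc15 family fell. Slc15a2, the high-affinity carrier of dipeptides and tripeptides that type 2 cells are known to use, was at 109, 90.2 and 78.5 CPM in sgNeo and at 17.6, 20.2 and 17.1 CPM in sgLkb1. Every sgLkb1 library was near the same low level (log2 fold change -2.34, SE 0.18, adjusted p = 0.00043 by edgeR). Slc15a1, the intestinal low-affinity form, was at 8.74, 5.26 and 6.25 CPM in sgNeo and 2.64, 0.79 and 1.06 CPM in sgLkb1. Its log2 fold change was -2.17 with an SE of 0.51 (adjusted p = 0.025 by edgeR), was -2.85 without sgLkb1 replicate 1, and passed only in that fit among the 6 that left out a library (adjusted p up to 0.087). Slc15a4 and Slc15a3, which export histidine and peptides from lysosomes, did not pass, with Slc15a4 at 37.3 ± 9.47 and 24.3 ± 2.60 CPM. The summed peptide transporters went from 22.4, 19.6 and 21.03 CPM per kilobase in sgNeo to 7.18, 8.005 and 7.43 in sgLkb1. This fall ran beside that of the alveolar type 2 markers, whose sum lay at 117430 to 138800 CPM in sgNeo and 11239 to 18768 CPM in sgLkb1.

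Of the lactate and pyruvate transporters, Slc16a3 rose and Slc16a7 fell in sgLkb1. Slc16a3, the isoform of glycolytic cells that exports lactate, was at 8.18, 7.05 and 18.7 CPM in sgNeo and at 35.4, 48.4 and 49.5 CPM in sgLkb1. All sgLkb1 libraries were higher, and sgNeo replicate 3 stood above the other sgNeo libraries (log2 fold change 1.97, SE 0.37, adjusted p = 0.011 by edgeR). Slc16a7, a high-affinity isoform for pyruvate and lactate uptake, was at 14.6, 15.02 and 11.2 CPM in sgNeo and at 2.37, 1.34 and 1.03 CPM in sgLkb1 (log2 fold change -3.10 with an SE of 0.37, adjusted p = 0.0017 by edgeR).

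Slc16a1, the widely expressed isoform that works in either direction, was at 116, 91.2 and 82.5 CPM in sgNeo and 122, 96.5 and 66.8 CPM in sgLkb1, with a log2 fold change of -0.02 (95% interval -0.57 to 0.52). It remained the leading isoform per kilobase in every library, with 80.6 to 90.4% of the summed lactate and pyruvate transporters in sgNeo and 61.6 to 80.04% in sgLkb1. Slc16a7 took 4.10 to 5.47% in sgNeo and 0.36 to 0.58% in sgLkb1. Slc16a8, the isoform of the retinal pigment epithelium, had 3 counts in all libraries together.

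Slc16a12, a creatine transporter of the same family, had the greatest fall of all 60 tested genes. It was at 8.06, 18.3 and 21.2 CPM in sgNeo and 0.59, 2.73 and 0.98 CPM in sgLkb1 (log2 fold change -3.47 with an SE of 0.62, adjusted p = 0.0090 by edgeR, and -4.31 without sgLkb1 replicate 2). Both groups varied, and the lowest sgNeo library was still well above the highest sgLkb1 library. Slc16a6 was at 22.6 ± 1.72 and 17.1 ± 4.80 CPM. Slc16a10, a carrier of aromatic amino acids, was at 0.88, 8.03 and 2.47 CPM in sgLkb1 and at most 0.89 CPM in sgNeo, with an edgeR adjusted p of 0.062. It passed without a filter, with DESeq2, with the replicate block and without sgLkb1 replicate 1. Slc16a11 was at 22.3, 24.8 and 17.6 CPM in sgNeo and 8.098, 10.4 and 16.7 CPM in sgLkb1 (edgeR adjusted p = 0.078), and passed without a filter, with DESeq2 and without sgLkb1 replicate 3.

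The vesicular glutamate transporter Slc17a6, which fills synaptic vesicles of excitatory neurons, had the greatest rise. It had 1, 0 and 4 counts in sgNeo (0.040, 0 and 0.16 CPM) and stood at 37.1, 21.9 and 71.2 CPM in sgLkb1. Every sgLkb1 library expressed it, and it moved from the 72nd to the 13th place among the 96 genes in CPM per kilobase. The log2 fold change was 9.26 with an SE of 0.76 (adjusted p = 0.00054 by edgeR) and 10.82 without sgNeo replicate 3, so its size rests on very few sgNeo counts. The other vesicular glutamate transporters stayed low, with Slc17a7 at most 0.20 CPM and Slc17a8 at most 0.64 CPM, and were not tested. Slc17a6 lies at chr7:51622006-51671119 (plus strand).

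Slc17a9, which loads ATP into vesicles, was at 7.46, 8.95 and 10.0 CPM in sgNeo and at 17.1, 20.6 and 13.6 CPM in sgLkb1 (log2 fold change 0.95 with an SE of 0.23, adjusted p = 0.029 by edgeR). Its groups did not overlap, and the call was lost without any one sgNeo library or without sgLkb1 replicate 2 (adjusted p up to 0.11). The lysosomal sialic acid exporter Slc17a5 was at 22.7 ± 1.09 and 16.9 ± 1.78 CPM, short of the threshold. The vesicular amine transporters Slc18a1 and Slc18a2 were at 5.79 ± 1.13 and 8.23 ± 0.795 CPM in sgNeo and 3.35 ± 1.27 and 8.51 ± 3.19 CPM in sgLkb1, and neither passed. Slc32a1, which loads GABA, and Slc18a3, which loads acetylcholine, had no counts in any library, and the floor of 3 counts equals 0.12 CPM in each sgNeo library and 0.073 to 0.086 CPM in sgLkb1 libraries.

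The list of synaptic vesicle and neuroendocrine genes was read beside the vesicular carriers. Of its 22 genes 12 were tested, 4 rose (background 7.05%) and 2 fell (background 8.6%), and the median log2 fold change was -0.43. Snap25, a membrane fusion protein of vesicle release, was at 0.040, 0.16 and 1.91 CPM in sgNeo and 18.5, 15.96 and 13.1 CPM in sgLkb1. Its log2 fold change of 4.48 was 7.24 without sgNeo replicate 3 and 5.83 with limma-voom, and the call was lost without sgNeo replicate 2 (edgeR adjusted p = 0.068). Gad2, which makes GABA, rose (log2 fold change 4.95, and 6.09 without sgNeo replicate 3), as did Calca, which encodes a neuropeptide (5.40, and 3.95 without sgLkb1 replicate 3) and Tph1, which starts serotonin synthesis (1.79). The Calca call was lost without sgNeo replicate 2 (edgeR adjusted p = 0.051) and with limma-voom (adjusted p = 0.13). The Tph1 call held only without sgLkb1 replicate 3 among the fits that left out a library (adjusted p up to 0.096), and was lost with the replicate block (0.055) and limma-voom (0.052). Rab3a and Vamp2, 2 proteins of vesicle docking and fusion, fell. Rab3a (-0.79) held its call only without sgLkb1 replicate 3 and Vamp2 (-0.62) only without sgNeo replicate 3, with adjusted p up to 0.11 and 0.16. Vamp2 was also lost with RLE scaling, without a filter and with the replicate block (adjusted p from 0.051 to 0.061). The defining neuroendocrine genes Chga and Insm1 were at most 0.49 CPM and Neurod1 had no counts. The summed neuron and Schwann cell markers were at 3.23 to 3.52 CPM in sgNeo and 3.20 to 3.50 CPM in sgLkb1, and Sox10 had no counts. Of the 3 tested among these 7 markers 1 rose and 1 fell. The one that rose was S100b, from at most 0.32 CPM in sgNeo to 1.05, 1.60 and 1.09 CPM in sgLkb1.

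In CPM per kilobase, 4 genes led in both genotypes, and their order changed through Slc1a5. In sgNeo Slc1a5 was first at 64.9 ± 3.54, before Slc3a2 at 46.7 ± 5.32, Slc38a2 at 42.9 ± 1.34 and Slc16a1 at 21.8 ± 3.87. In sgLkb1 Slc3a2 was first at 47.4 ± 1.99 and Slc38a2 second at 45.0 ± 11.5, which do not differ beyond their spread, and Slc1a5 followed at 27.7 ± 3.08. Slc6a20a went from the 7th to the 31st place and Slc15a2 from the 9th to the 29th. The sum over all carriers was 392, 377 and 387 CPM per kilobase in sgNeo and 330, 298 and 323 in sgLkb1. Slc1a5 took 16.8 ± 0.90% of it in sgNeo and 8.73 ± 0.68% in sgLkb1.

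**Figure D4:**
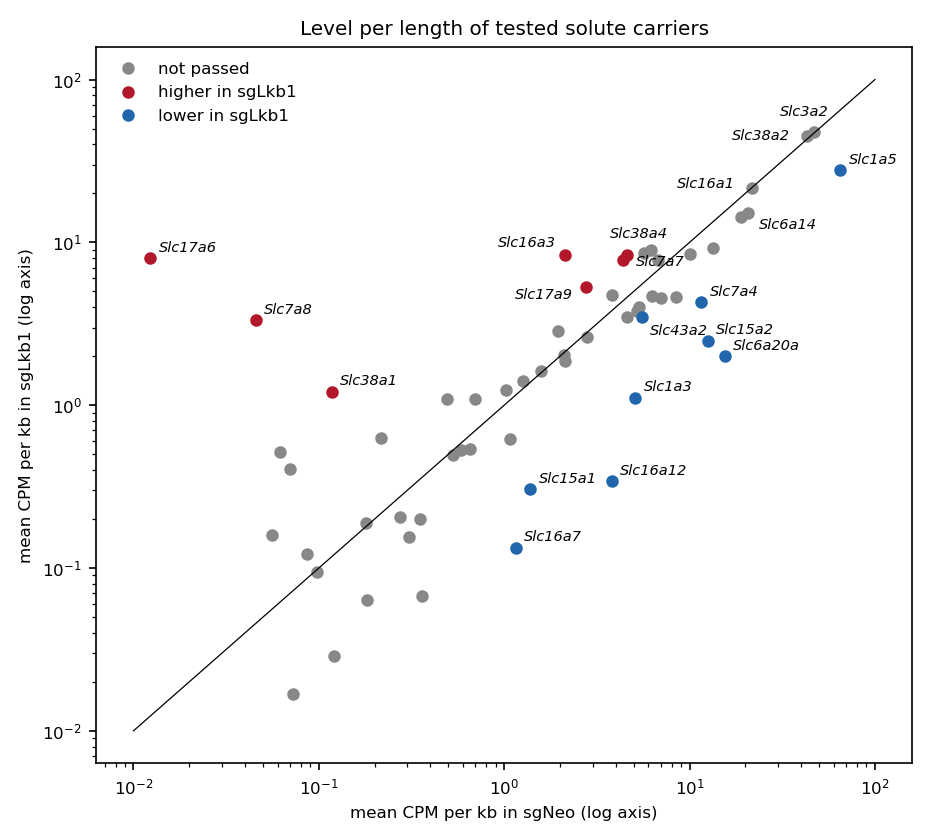
Mean CPM per kilobase of merged exons in sgLkb1 (vertical, log axis) against sgNeo (horizontal, log axis) for the 60 tested genes, with a line of equal level. Slc3a2, Slc38a2 and Slc16a1 lie on or near the line, Slc1a5 lies below it at 64.9 and 27.7, and Slc17a6 stands far above it.

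The 36 genes that were not tested had few or no counts. Of these, 14 had under 3 counts in total, among them 8 with none, and the greatest mean in either genotype was 0.59 CPM. That greatest mean was from Slc7a9, a cystine transporter subunit of kidney and gut, which had 0, 3 and 41 counts in sgNeo and none in sgLkb1, and which passed when no filter was used. Slc43a1, a carrier of large neutral amino acids, had 4, 3 and 1 counts in sgNeo and 2, 10 and 28 in sgLkb1, and Slc17a2 had 0, 31 and 3 counts in sgNeo and 0, 6 and 0 in sgLkb1. In each of these 3 genes most counts came from 1 library.

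Enzymes that use what the carriers deliver were read from lists of other genes. The ATF4 amino acid response list holds Atf4, the sensor Eif2ak4 and genes that cells induce when amino acids run short. Of its 25 genes 6 fell (background 8.6%), Eif2ak4 among them, and 2 rose, a share near the background of 7.05%. The median log2 fold change was -0.30. Atf4 was at 82.7 ± 9.05 and 88.9 ± 17.1 CPM and Asns, the asparagine synthetase, at 130 ± 14.7 and 116 ± 36.3 CPM, and neither passed. Sesn2, a leucine sensor, fell from 41.5 ± 1.86 to 20.0 ± 2.91 CPM (log2 fold change -1.05), Pck2, the mitochondrial PEP carboxykinase, from 79.4 ± 7.62 to 36.5 ± 6.22 CPM (-1.12) and Vldlr, a lipoprotein receptor, from 36.03 ± 2.44 to 18.5 ± 2.76 CPM (-0.96). Stc2, a secreted glycoprotein, rose from 0.76 ± 0.52 to 13.4 ± 1.41 CPM (4.13, and 4.85 without sgNeo replicate 1). These 4 held in all 6 fits that left out a library. Of the other 4, Ddit4, an mTORC1 inhibitor, rose (1.25) and held only without sgLkb1 replicate 1, and Pycr1, of proline synthesis, fell (-0.94) and held in none. The uncharged-tRNA sensor Eif2ak4 (-0.74) held without sgLkb1 replicate 1 or 3, and the aminotransferase Gpt2 (-0.81) without sgNeo replicate 2 or sgLkb1 replicate 3. For Ddit4, Pycr1, Eif2ak4 and Gpt2 the edgeR adjusted p lay up to 0.075, 0.15, 0.11 and 0.12. Without a filter on low counts Eif2ak4 missed the threshold (adjusted p = 0.078), and Pycr1 missed it in that setting, with RLE scaling, with the replicate block and with limma-voom (0.054 to 0.071).

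Of 14 partners of lactate and pyruvate transport 4 fell (background 8.6%) and 1 rose, a share near the background of 7.05%, and the median log2 fold change was -0.34. Bsg, the chaperone of Slc16a1 and Slc16a3, was at 772 ± 85.3 and 818 ± 18.9 CPM, short of the threshold. Emb, the chaperone of Slc16a7, was at 327, 232 and 197 CPM in sgNeo and at 136, 53.0 and 63.0 CPM in sgLkb1, and fell beside it (log2 fold change -1.58, edgeR adjusted p = 0.025). That call held only without sgNeo replicate 3 or sgLkb1 replicate 1 (adjusted p up to 0.082). Ldhb, the lactate dehydrogenase subunit that favours pyruvate, fell from 176 ± 22.7 to 20.5 ± 11.6 CPM (-3.10), and Pdk2 and Pdk4, which restrain pyruvate dehydrogenase, fell (-1.49 and -1.24). Ldha was at 1885 ± 221 and 2835 ± 166 CPM with an edgeR adjusted p of 0.065, and Pkm, pyruvate kinase, rose from 805 ± 202 to 1933 ± 558 CPM (1.26). Leaving out sgNeo replicate 1 or 2 or sgLkb1 replicate 2 ended the Pkm call (adjusted p up to 0.096).

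Of 15 tested genes of glutamate, glutamine and glutathione metabolism 4 rose (background 7.05%) and 3 fell (background 8.6%), and the median log2 fold change was 0.32. Glul, which makes glutamine, rose from 45.9 ± 9.29 to 83.1 ± 13.6 CPM (0.86 on the log2 scale) and the aspartate aminotransferase Got1 from 36.7 ± 10.5 to 69.6 ± 10.8 CPM (0.92). Chac2, a glutathione-degrading enzyme, rose (1.41) and held in all fits that left out a library. Without sgLkb1 replicate 2 or either of sgNeo replicates 1 and 2 both Glul and Got1 lost their calls, Got1 also without sgLkb1 replicate 3 (adjusted p up to 0.11 for Glul and 0.12 for Got1). Anpep, a surface peptidase that releases amino acids from peptides, fell from 20.6 ± 4.29 to 2.26 ± 0.78 CPM (-3.19) and Ggt5, which cleaves extracellular glutathione conjugates, from 53.8 ± 2.84 to 7.02 ± 2.38 CPM (-2.94). Cth, of cysteine synthesis, fell too (-0.94) and held only without sgLkb1 replicate 1 (adjusted p up to 0.097). Gclc, the rate-limiting enzyme of glutathione synthesis, was at 1013 ± 31.0 and 1196 ± 490 CPM, short of the threshold.

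**Figure D5:**
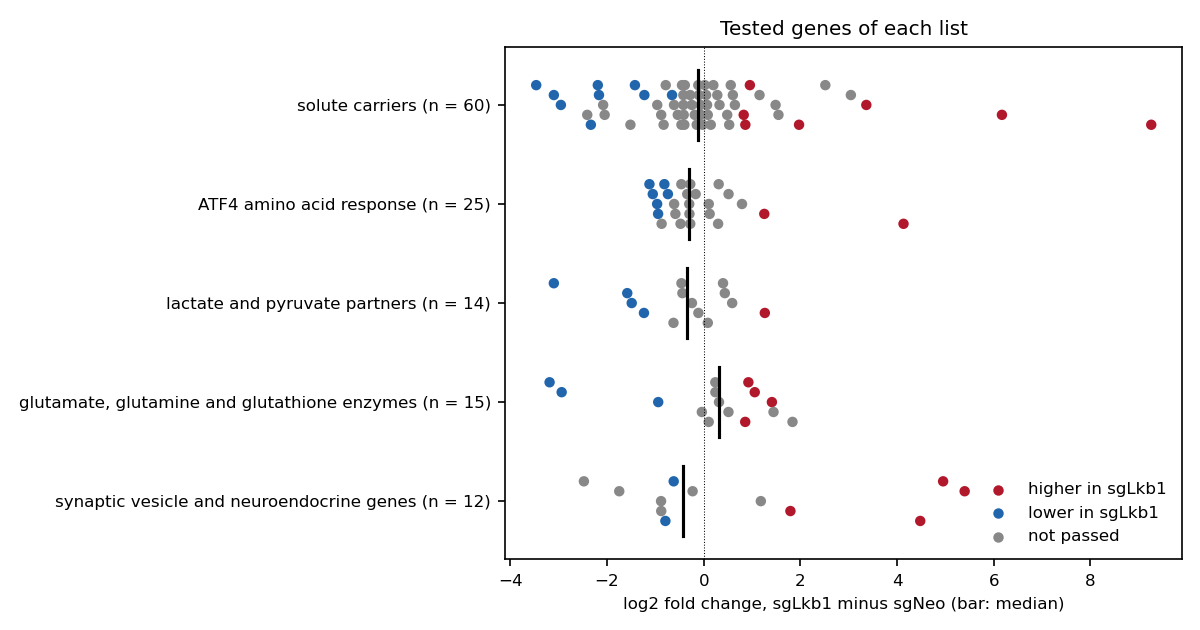
Log2 fold change (sgLkb1 minus sgNeo) of every tested gene of the solute carriers and of the other lists, one point per gene coloured by its call, with a bar at each median. The carriers have a median of -0.13 with points from -3.47 to 9.26, and the enzymes of glutamate, glutamine and glutathione have the highest median, at 0.32.

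RefSeq promoter windows (GRCm38.p6) were available for 69 of the 96 genes, with 93 start sites, and the 250 bases before each start were searched on both strands. ACGTG, the core bound by hypoxia-inducible factors, was in 24.7% of the 93 windows and in 16.6% of all 32851 windows of the same length. CACGTG, the E-box, which holds ACGTG and in Slc16a12 is the match shown, was in 11.8% and 6.02%. TGACG, a part of the cyclic AMP response element, was in 21.5% and 17.8%, its full form TGACGTCA in 1.08% and 1.55%, the AP-1 motif TGANTCA in 9.68% and 6.75%, and TGATGNAAN, the amino acid response motif of ATF4, in 5.38% and 3.44%. Among the genes that passed, Slc38a1, Slc17a9, Slc16a7, Slc7a4 and Slc1a5 had no window. Of the 12 windows of genes that rose, ACGTG was in 1, that of Slc16a3. Of the 7 windows of genes that fell, it was in 2, those of Slc15a2 and Slc16a12. These are few windows beside the 16.6% of all windows. The same letters stood before a gene that rose and before 2 that fell. These 3 windows are shown 5′ to 3′ for that reason, with every base of a match in capitals, which in the first 2 includes TGACG overlapping ACGTG. The first is chr11:120948817-120949066 (plus strand), the second chr16:36784963-36785212 (minus strand) and the third chr19:34747329-34747578 (minus strand).
Slc16a3: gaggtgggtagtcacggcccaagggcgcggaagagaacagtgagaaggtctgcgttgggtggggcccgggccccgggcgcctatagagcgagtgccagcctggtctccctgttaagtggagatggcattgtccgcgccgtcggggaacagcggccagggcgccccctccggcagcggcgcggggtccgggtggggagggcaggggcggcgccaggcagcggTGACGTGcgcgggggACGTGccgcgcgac
Slc15a2: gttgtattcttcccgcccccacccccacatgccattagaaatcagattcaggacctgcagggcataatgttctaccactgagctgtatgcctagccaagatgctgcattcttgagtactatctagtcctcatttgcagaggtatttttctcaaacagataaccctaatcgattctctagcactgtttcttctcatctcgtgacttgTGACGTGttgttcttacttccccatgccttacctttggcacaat
Slc16a12: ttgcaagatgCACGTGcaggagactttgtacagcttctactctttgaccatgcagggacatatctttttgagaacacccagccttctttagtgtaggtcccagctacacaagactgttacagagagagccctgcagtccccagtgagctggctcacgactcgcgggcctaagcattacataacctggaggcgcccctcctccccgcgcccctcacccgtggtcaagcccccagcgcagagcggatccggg
In Slc16a3 and Slc15a2 the capitals lie close to the start site, and in Slc16a12 they lie at the far end of the window. A match says only that the letters are there.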

How the data were processed

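The authors deposited expected counts per gene for 6 libraries; per the submitters' processing notes the tools were STAR, RSEM, FastQC and DESeq2, and the build was GRCm38. For counting, the strand setting is not given in the sources used here, nor is the annotation, so reads of overlapping opposite-strand genes cannot be told apart, and RSEM divides reads between near-identical genes. Per the labels' protocols, the library kit was Nextera XT.

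Expected counts were rounded, filtered with filterByExpr (15978 genes), scaled with TMM and compared with edgeR 4.0.16 (R 4.3.3) by the quasi-likelihood test, two-sided, on genotype alone, and p-values were adjusted by Benjamini-Hochberg over all tested genes at 0.05. Adjusted p-values come from edgeR except where limma-voom or DESeq2 is named. SEs were derived from the log2 fold change and its F statistic, and 95% intervals from the SEs. Merged exon lengths and gene coordinates came from GENCODE M21 (GRCm38), matched on gene identifiers without version; 95 of 96 genes also matched with version. The floor of 3 counts covers counting error only. Shares were described without a test.

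Alternatives were a replicate block, RLE scaling, no filter, a stricter filter (1 CPM or more in 3 libraries), limma-voom (limma 3.58.1), DESeq2 1.42.0, and leaving out every library in turn. The test was checked on simulated data with 200 changed genes. The genes and lists were chosen with earlier results of these data known. By rule, the text names carriers that passed, a set of carriers whatever their result, and of each other list the first 2 genes and those that passed. Slc1a2, Slc1a6, Slc1a7, Slc6a4, Slc6a8, Slc6a9, Slc6a15, Slc6a20b, Slc7a6, Slc7a6os, Slc7a9, Slc16a8, Slc16a10, Slc16a11, Slc17a2, Slc18a3, Slc38a7 and Ldha, and the marker genes and the neuroendocrine genes at or near 0, were named after their values were seen. A few genes are not reported here by name and count only in the totals.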

Additional observations from a re-analysis of the deposited data

How the results depend on the processing

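All 16 calls among the carriers held with RLE scaling, without a filter, with the stricter filter, with DESeq2 and with the replicate number as a block, and limma-voom lost Slc7a8. No named gene that passed in any setting changed direction. The carriers had 4 to 7 higher and 6 to 10 lower genes with a library left out, against 7 and 9. For all tested genes these ranges were 447 to 1368 higher and 682 to 1412 lower, against 1127 and 1374, and 1917 were higher without a filter and 1819 with DESeq2. With a library left out the ATF4 list had 1 to 2 higher and 3 to 5 lower, the lactate and pyruvate list 0 to 2 higher, the glutamate list 1 to 5 higher, and the synaptic list 1 to 4 higher and 0 to 1 lower. The lactate and pyruvate list had 2 higher with the replicate block, 3 with DESeq2 and 2 with limma-voom, and the synaptic list had 2 higher with limma-voom and 1 lower with RLE scaling. The cause of these differences was not tested. The labels do not say whether libraries with the same replicate number belong together. Their deviations from the group means correlated at 0.23, -0.016 and 0.22 for numbers 1, 2 and 3. Replicates 1 and 3 correlated best with their own number and replicate 2 did not, so these values do not settle whether the libraries are paired. With the replicate block 17 carriers passed, 16 of them also without it, and 18% of all tested genes passed, against 15.7% without it. The 36 carriers with too few counts to be tested, each with a mean of at most 0.585 CPM in either genotype, were beyond this depth.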
